A study of Mus musculus with 2 samples.

Results

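The genes of the mitochondrial carrier family Slc25 were examined in EP300 ChIP-seq data from the newborn mouse heart. Members were taken by name, as the protein-coding genes of the GENCODE annotation of the mouse genome (mm10, also called GRCm38) whose symbol is Slc25a followed by a number, which gave 47 of 21911 protein-coding genes. A peak was assigned to a member when the nearest protein-coding transcription start site (TSS) to its summit, within 100 kb, belonged to that member. By this rule 53 of the 17372 peaks of the optimal list were assigned to 19 of the 47 members, and the remaining 28 members had no assigned peak. Distance alone decided the assignment, and no contact between a peak and a promoter was measured.

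EP300, or p300, is a histone acetyltransferase that transcription factors bring to enhancers and promoters. Slc25 proteins are carriers with a common fold that sit, in most cases, in the inner mitochondrial membrane, where they exchange ADP for ATP and move phosphate, amino acids, carboxylates, acylcarnitines, cofactors and iron between cytosol and matrix. The heart makes most of its ATP in mitochondria, and Slc25a4, also known as ANT1, is the ADP/ATP carrier of heart and skeletal muscle.

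The tissue was whole heart of mice of the strain labelled B6NCrl at postnatal day 0, without any genotype change or treatment in the labels, with sex recorded as not collected, and chromatin was precipitated with an antibody to EP300. The 2 samples form 1 group and are labelled biological replicates 1 and 2, yet both carry the same biosample and donor identifiers, so what separates them may be no more than technical spread. No second tissue, age or treatment was given, so members were described beside all protein-coding genes and no condition was tested. Whole heart holds muscle, endothelial, fibroblast and other cells, and a peak cannot be ascribed to any of them here.

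The authors called peaks on each replicate and on the pooled reads, per the file headers, with 300000 calls in each of those lists. From these they derived an optimal list of 17372 peaks and a conservative list of 15628 by the irreproducible discovery rate (IDR), a measure of how steadily a peak ranks in repeated lists. Read counts were not part of the files used here, so the depth is unknown. The authors' signal value of a call is its height relative to a control, with no formula given. It serves below only to rank and describe peaks within 1 list, where rank 1 is the highest signal. Peaks with a summit at most 1 kb from a protein-coding TSS are called promoter-proximal, and the others distal. Gene markers were read beside the heart label. Assigned peaks were found for 9 of 9 heart muscle genes, 107 in all, against 1 of 5 liver genes and 1 of 5 neuron genes. Over all protein-coding genes the share was 31.8%, with 0.711 peaks per gene. The marker lists were chosen with earlier results of these data known, so this is no independent check of the label. The neuron gene with peaks, Rbfox3, had 2, the higher with a signal of 93.7 at rank 483. That was above the highest peaks of the heart genes Actc1, Nppa and Nkx2-5 and below those of the other heart genes.

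The windows of 200 bases at the summits of the 5 member peaks of highest signal are shown because they are the EP300 sites on which the family's highest values rest. They were read from the GRCm38 reference genome of NCBI RefSeq, 5′ to 3′ on the strand of the gene, which is the minus strand for all of them. Capitals mark the matches to a set of 11 short motifs searched on both strands and, in the first window, a TATAAA that was looked for after the sequence had been seen.
Slc25a4 promoter, chr8:46211152-46211351: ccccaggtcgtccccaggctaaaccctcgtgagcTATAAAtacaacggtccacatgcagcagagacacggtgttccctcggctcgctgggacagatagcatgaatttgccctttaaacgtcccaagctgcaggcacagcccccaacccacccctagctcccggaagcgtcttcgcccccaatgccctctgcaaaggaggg
Slc25a4 upstream, chr8:46216945-46217144: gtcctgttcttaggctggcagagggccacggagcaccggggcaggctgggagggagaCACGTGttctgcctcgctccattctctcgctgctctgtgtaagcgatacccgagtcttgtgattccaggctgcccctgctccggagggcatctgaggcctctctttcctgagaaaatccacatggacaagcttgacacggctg
Slc25a34 upstream, chr4:141643617-141643816: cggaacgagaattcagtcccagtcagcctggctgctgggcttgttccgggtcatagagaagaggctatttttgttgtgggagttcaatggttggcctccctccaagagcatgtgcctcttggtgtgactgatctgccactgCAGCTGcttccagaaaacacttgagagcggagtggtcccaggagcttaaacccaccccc
Slc25a13 intron, chr6:6185383-6185582: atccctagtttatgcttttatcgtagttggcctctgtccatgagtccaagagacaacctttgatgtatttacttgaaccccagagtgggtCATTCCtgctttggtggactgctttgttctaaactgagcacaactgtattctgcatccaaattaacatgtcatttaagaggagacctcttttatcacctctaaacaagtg
Slc25a42 upstream, chr8:70216573-70216772: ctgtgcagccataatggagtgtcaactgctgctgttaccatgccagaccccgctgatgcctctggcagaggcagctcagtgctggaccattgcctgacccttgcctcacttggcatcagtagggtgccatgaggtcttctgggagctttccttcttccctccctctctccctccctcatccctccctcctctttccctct
The first window holds the annotated Slc25a4 TSS at its position 68, counted from the 5′ end, with TATAAA beginning 33 bases before it. The second holds the E-box CACGTG, the third the E-box CAGCTG, and the fourth CATTCC, the complement of the TEAD motif GGAATG, whereas the Slc25a42 window had no match. The GC content was 59.5%, 60.0%, 55.0%, 41.0% and 58.0% in the order shown, and the windows held 10, 9, 4, 1 and 1 CpG. A match is a run of letters and not evidence that a factor was bound.

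More members had an EP300 summit at their own promoter than had a distal peak, while of the peaks themselves more were distal. At least 1 assigned peak was found for 19 of 47 members (40.4%), against 31.8% of all protein-coding genes. A summit within 1 kb of one of the gene's own TSSs was found for 16 members (34.0%), against 21.2% of all protein-coding genes. At least 1 distal peak was found for 10 members (21.3%), close to the 19.2% of all protein-coding genes. Among the 53 member peaks, 22 (41.5%) were promoter-proximal and 31 distal, against a promoter-proximal share of 37.3% of all 15570 assigned peaks. These shares are descriptions of 1 peak list and carry no test.

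Peaks were spread unevenly over the members. Of the 47, 4 (8.51%) held 5 or more peaks, against 3.03% of all protein-coding genes, and those 4, Slc25a4, Slc25a25, Slc25a13 and Slc25a33, held 26 of the 53. Slc25a4 alone held 10, which is 18.9% of the member peaks and 30.5% of their summed signal. Only promoter-proximal peaks were assigned to 9 members, only distal ones to 5, and both kinds to 5. Neighbouring calls often overlapped, and joining summits within 496 bp, the usual width of a call in this list, left 38 separate sites. Slc25a4 then held 6 sites, Slc25a33 4, and Slc25a13 and Slc25a25 3 each, so only Slc25a4 still held 5 or more. The share of all protein-coding genes with 5 or more joined sites is not given. The signal of member peaks ran from 7.1 to 222.7 with a median of 32.0, beside a median of 30.6 over all assigned peaks, so that apart from a few sites the family's peaks were of ordinary height.

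**Figure D1:**
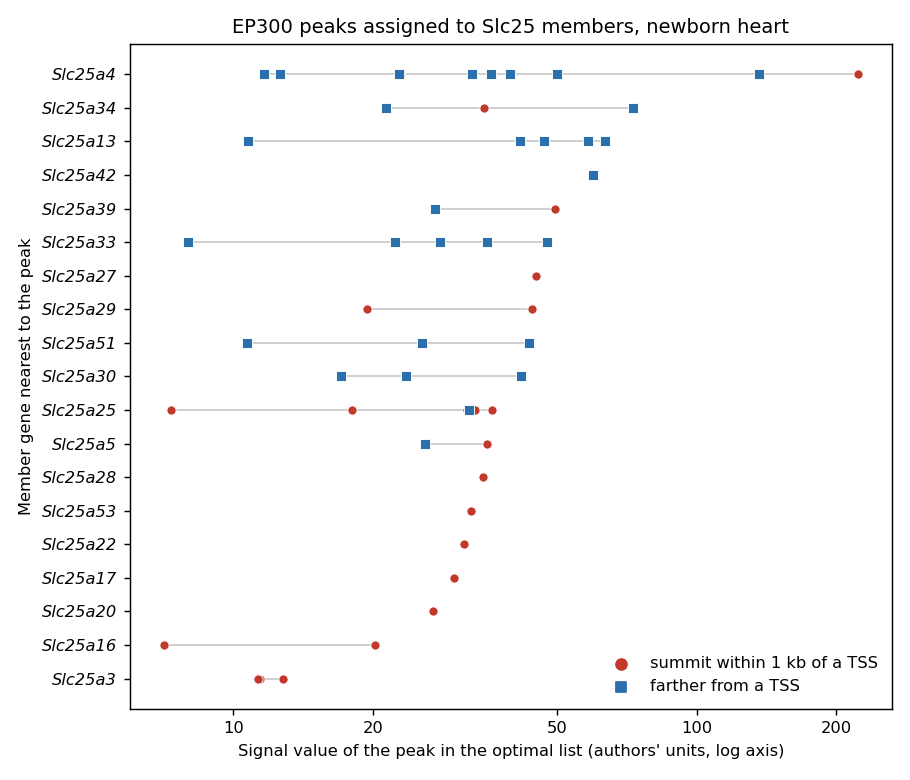
Signal value (authors' units, log axis) of each of the 53 peaks assigned to Slc25 members, 1 row per member with a peak, ordered by highest signal. Circles are summits within 1 kb of a TSS, squares are distal, and grey lines join the peaks of a gene. Slc25a4 holds the 2 highest values, 222.7 and 136.6, and the other members' highest values lie between 12.8 and 73.0.

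Carriers of adenine nucleotides, phosphate and coenzyme A were led by Slc25a4. Of these 10 members, 6 had assigned peaks, 23 in all, and 5 had a summit at their own promoter. Slc25a4 gave 587.5 of their summed signal of 933.0, and the other 9 members together gave 345.6, beside 332.5 for the carriers of cofactors, metals and other nucleotides and 315.8 for the amino acid carriers. Slc25a4 on chromosome 8 (ENSMUSG00000031633.4, 46206797 to 46211284, minus strand) had its highest peak over its start, at chr8:46211125-46211424, with the summit 32 bp inside the gene, in sequence annotated as untranslated region. That peak had a signal of 222.7 and stood at rank 18 of the whole optimal list, among the foremost EP300 sites of the newborn heart. Replicate 1 placed it at rank 14 with a signal of 133.4, and replicate 2 at rank 32 with 88.3, so both libraries had it near the head of their lists.

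A second strong Slc25a4 site lay 5761 bp upstream, between genes, with a signal of 136.6 at rank 128. It ranked 67 in replicate 1 and 252 in replicate 2, and is the site with the CACGTG E-box in the sequence above. Farther upstream, peaks at 15427 bp and 25666 bp had signals of 39.6 and 49.95. The first lay 2283 bp from a TSS of the pseudogene Actg-ps1, and the second 7156 bp from one of the microRNA gene Gm23812. A rule with TSSs of all types would not give these peaks to Slc25a4, which then held 8 peaks. The window of the peak at 25666 bp held the sole match to the MEF2 motif among the 31 distal member windows (3.23%, beside 6.78% of all distal windows). Within the gene, an intronic peak 2740 bp past the TSS had a signal of 35.9, and both replicates' leading lists held all 5 of these Slc25a4 peaks within 100 bp, where a leading list means the first 17372 peaks of a replicate by signal.

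Past the 3′ end of Slc25a4, between 7314 and 8534 bp from the TSS, lay 5 overlapping calls with signals of 32.8, 22.9, 22.7, 12.6 and 11.6, which form 1 joined site of 1716 bp. None of these 5 had summits of both leading lists within 100 bp, and 3 had one of replicate 2 alone and 2 of replicate 1 alone. The 10 calls of Slc25a4 thus came to 6 separate sites, from 25666 bp before to 8534 bp after the TSS. The other ADP/ATP carriers differed from it. Slc25a5, or ANT2, the form made in most dividing tissues, had a peak of 35.4 in its intron, 672 bp past the TSS and therefore promoter-proximal, and a distal one of 25.99 at 12031 bp. Slc25a31, or ANT4, which is known from the germ line, had none: the nearest optimal peak lay 53122 bp from its TSS, and neither replicate had a call within 1 kb of it.

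Slc25a3, the phosphate carrier that supplies ATP synthase, had 3 overlapping calls at its promoter with low signals of 12.8, 11.4 and 11.3, at ranks 15842, 16169 and 16211. The replicates each had a call there that ranked higher in its own list. In replicate 1 it stood at rank 10381, 68 bp from the call of 11.4, and in replicate 2 at rank 2246, 98 bp from the call of 12.8. The replicate lists thus did not place the summit at the same position within the promoter. Slc25a42, the mitochondrial coenzyme A carrier, had 1 peak of 59.6, 4368 bp upstream, at rank 1986 in the optimal list and at ranks 1756 and 2659 in replicates 1 and 2. Its promoter had no optimal peak, although both leading lists held a call within 1 kb of its TSS, at ranks 6636 and 13758.

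Slc25a25, an ATP-Mg/phosphate carrier regulated by calcium, had 6 calls at 3 sites. With 8 annotated TSSs spread over the gene, 5 of its calls were promoter-proximal. At the most upstream start lay 3 calls with signals of 36.2, 32.0 and 7.3, in sequence also annotated as untranslated region of the neighbouring gene Naif1, whose nearest TSS was 1495 bp from the first of them. At an internal start, calls of 33.2 and 18.1 lay 214 and 14 bp from the TSS, and a call of 32.2 lay in an intron. None of the 6 had a summit in both leading lists within 100 bp. Slc25a17, a carrier of the peroxisome, had 1 promoter-proximal peak of 30.0. The relatives of Slc25a25, namely Slc25a23, Slc25a24 and Slc25a41, had no assigned peak.

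**Figure D2:**
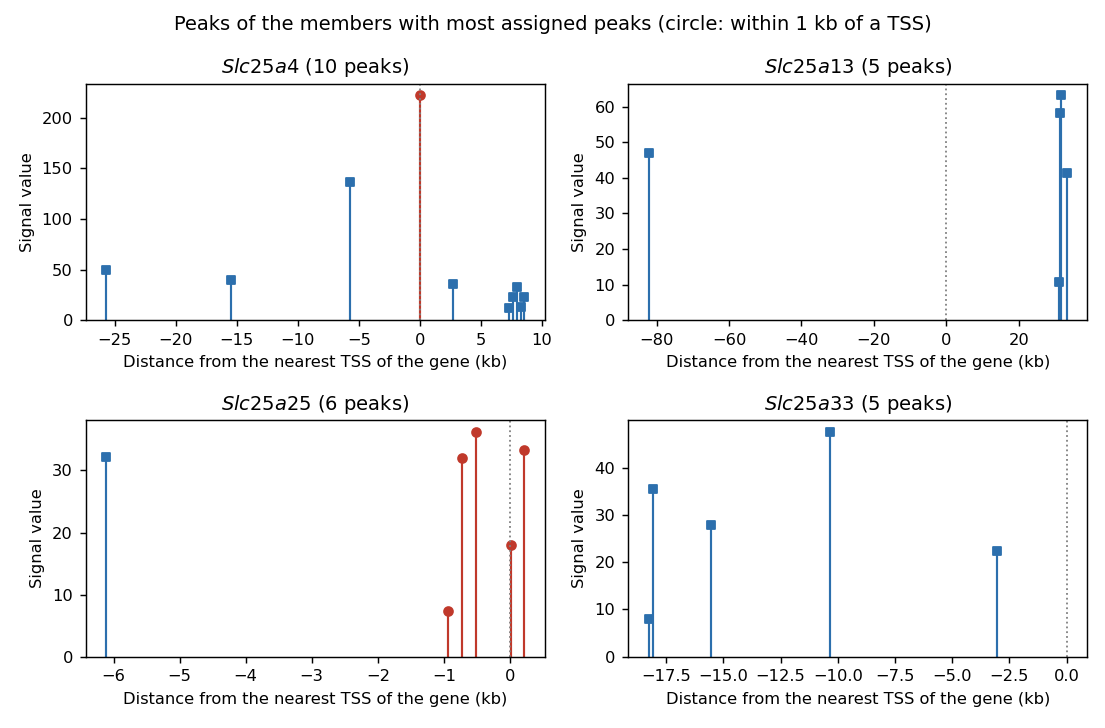
Position and signal of the assigned peaks of the 4 members with most peaks, plotted as distance in kb from the nearest TSS of the gene (negative values upstream) against signal value. Circles are within 1 kb of a TSS and squares are farther. The y axes differ. Slc25a4 reaches 222.7 at its TSS, and Slc25a13 has its highest peak inside the gene, 31635 bp past the TSS. Slc25a25 has 5 of 6 peaks close to its starts, and all 5 Slc25a33 peaks lie upstream.

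Among the 9 amino acid carriers, 3 had assigned peaks, 8 in all. The aspartate/glutamate carriers of the malate-aspartate shuttle, which brings reducing equivalents of NADH into mitochondria, differed from each other. Slc25a13, or citrin, had 5 peaks, all distal. An intronic group lay 31212 to 33236 bp past the TSS on chromosome 6, with signals of 63.4, 58.2, 41.5 and 10.8. The highest of these ranked 3888 in replicate 1 and 1068 in replicate 2. A Slc25a13 TSS that is not that of a protein-coding transcript lay nearer, 5836 bp from this highest summit. A further peak of 46.9 lay 82160 bp upstream, the farthest of all member peaks. It was 88 bp from the TSS of the long non-coding RNA gene Gm20619, and a rule with genes of all types would not give it to Slc25a13. Beyond the 100 kb limit lay 1 more peak nearest to a member, again Slc25a13, with a signal of 31.8 at 154794 bp. Slc25a12, or aralar, the form known from heart and brain, had no assigned peak, and the nearest optimal peak lay 56892 bp away. Calls within 1 kb of its TSS stood at rank 13226 in replicate 1 and 23167 in replicate 2.

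Slc25a29, a carrier of basic amino acids, had overlapping peaks of 44.2 and 19.4 in its promoter, with the first at ranks 4328 and 8321 in replicates 1 and 2. The region is shared with another member: Slc25a47 starts head to head with Slc25a29, and a TSS of it that is not that of a protein-coding transcript lay 17 bp from the first summit. With 1 TSS per gene these peaks pass to Slc25a47. Slc25a22, a glutamate carrier, had 1 peak of 31.5, 12 bp from a TSS, at rank 21843 in replicate 1 and 9912 in replicate 2. The other 6 of this group, Slc25a2, Slc25a12, Slc25a15, Slc25a18, Slc25a38 and Slc25a44, had none.

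Among the 5 carriers of carboxylates and acylcarnitine, 1 had an assigned peak, beside 31.8% of all protein-coding genes. A summit at the own promoter was found for 2 of the 5, beside 21.2% of all protein-coding genes. Only Slc25a20, the carnitine/acylcarnitine carrier that brings fatty acids in for oxidation, had an assigned peak, of 27.0, 61 bp past its TSS. Neither leading list held it, and its nearest calls ranked 20108 and 128684. Slc25a11, the oxoglutarate/malate carrier of the malate-aspartate shuttle, had no assigned peak by the rule, yet an optimal peak with a signal of 62.2 had its summit 125 bp from its TSS. The summit was 104 bp from the TSS of Rnf167, a gene on the opposite strand, and so went to that gene. Calls within 1 kb of the Slc25a11 TSS stood at rank 6256 in replicate 1 and 672 in replicate 2. Slc25a1, the citrate carrier, Slc25a10, the dicarboxylate carrier, and Slc25a21 had neither an assigned peak nor a summit at their own promoter.

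The uncoupling protein relatives were divided. Slc25a27, or UCP4, had a promoter peak of 45.1 with the summit 12 bp from its TSS and 199 bp from that of Cyp39a1, at ranks 4462 and 6136 in replicates 1 and 2. The replicate 2 summit lay 228 bp away. Slc25a30, or KMCP1, had 3 distal peaks, with signals of 41.7 and 17.1 upstream at 15879 and 16799 bp, and of 23.7 in its intron. Its promoter had calls at ranks 9835 and 15260 in the replicates but no optimal peak. Slc25a14 had no assigned peak.

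Carriers of cofactors, metals and pyrimidine nucleotides held 11 peaks at 4 of 10 members. Slc25a39, the carrier needed for import of glutathione, had a promoter-proximal peak of 49.5, 686 bp upstream of its TSS, at ranks 6206 and 1769 in replicates 1 and 2, and a distal one of 27.3. Slc25a33, a pyrimidine nucleotide carrier, had 5 calls upstream at 4 sites, between 3053 and 18260 bp, with signals from 8.0 to 47.6. The highest, at 10342 bp, ranked 4892 in replicate 1 and 4294 in replicate 2. All 5 were nearer to the TSS of a non-coding gene or pseudogene than to Slc25a33. Slc25a51, the mitochondrial NAD+ carrier, had 3 distal calls, the highest of 43.5 in an intron of Shb, 36344 bp upstream, and the others of 25.6 and 10.7 at about 12 kb. Slc25a28, or mitoferrin 2, an iron carrier, had a promoter-proximal peak of 34.6, 427 bp upstream. The summit lay 130 bp from a TSS of AC138790.1, a gene that is not protein-coding. A rule with TSSs of all types would not give this peak to Slc25a28. Neither leading list held a summit within 100 bp of it, and its nearest calls ranked 9270 and 21600 in replicates 1 and 2. No peak was assigned to the related Slc25a37, mitoferrin 1, best known from red cell precursors. Neither replicate had a call within 1 kb of a Slc25a37 TSS. Slc25a32, the folate carrier, had a summit of 20.7 at 144 bp from its TSS that went to the neighbour Dcaf13. Slc25a26, Slc25a36 and Slc25a40 had none.

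The last group holds members whose substrate is unsettled or that do another task, and 3 of its 10 had peaks. Slc25a34 had the third highest member peak, of 73.0 at rank 1156, 19896 bp upstream on chromosome 4, at ranks 1404 and 810 in replicates 1 and 2. That summit lay in an intron of Plekhm2, 955 bp from a Plekhm2 TSS that is not that of a protein-coding transcript. The nearest TSS of a protein-coding Plekhm2 transcript was 20401 bp away, little farther than that of Slc25a34. A rule with TSSs of all types would not give this peak to Slc25a34. The same member had a promoter-proximal peak of 34.8, 90 bp from its TSS, and one of 21.4 at 1667 bp. Slc25a53 had a peak of 32.6, 9 bp from its TSS, at rank 5954 in replicate 2. In replicate 1 the call nearest the summit, 100 bp away, had rank 158920, and the best call within 1 kb of a TSS had rank 10227. Slc25a16 had 2 overlapping promoter calls of 20.2 and 7.1. No peak was assigned to Slc25a35, Slc25a43, Slc25a45, Slc25a46, an outer membrane protein that acts in mitochondrial shape, Slc25a47, Slc25a48 or Slc25a54.

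The 31 distal member peaks lay a median of 12545 bp from the nearest TSS. Of these, 22 were intergenic and 9 intronic, 7 in the member itself and 2 in another gene, Plekhm2 or Shb. The median territory, meaning the stretch of genome nearer to a gene's TSSs than to any other within the limit, was 38.7 kb for members with a peak and 34.5 kb for those without. Over the family it was 36.3 kb, beside 46.6 kb for all protein-coding genes.

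Each member peak was then looked for in both replicates. Of the 53, 20 (37.7%) had a summit of both leading lists within 100 bp, against 40.2% of all assigned peaks. A summit in the leading list of replicate 1 alone was found for 11, of replicate 2 alone for 10, and of neither for 12, with no shares over all assigned peaks given for these counts. High peaks were more often shared, in the family and overall: 14 of the 15 member peaks of highest signal (93.3%) were in both leading lists, beside 87.0% of all assigned peaks at or above the same signal of 41.5. Of the other 38 member peaks 6 were (15.8%), beside 22.3% of all assigned peaks below it, a division made after the values had been seen. The exception among the 15 was the Slc25a27 promoter. By class, 15 of 31 distal member peaks (48.4%) were in both, beside 42.8% of all distal peaks, and 5 of 22 promoter-proximal ones (22.7%), beside 35.9% of all promoter-proximal peaks. The optimal list was made from the same reads, so this is no independent check. A deposited −log10 q of at least 2, the caller's own confidence, was reached by 29 of the 53 (54.7%), against 57.5% of all assigned peaks. A counterpart in the conservative list was found for 36 of the 53. The share of all assigned peaks with such a counterpart is not given, so this count cannot be called high or low.

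**Figure D3:**
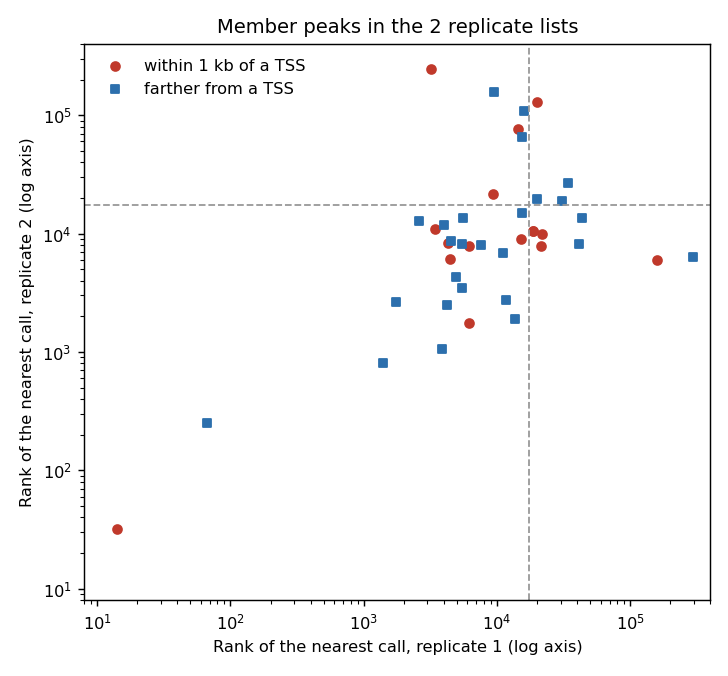
Rank of the call nearest to each member peak in the full list of replicate 1 (x axis) and replicate 2 (y axis), both on log axes, for the 42 peaks with a call within 248 bp in both. Circles are within 1 kb of a TSS and squares are distal, and dashed lines mark rank 17372. The Slc25a4 promoter (14 and 32) and the Slc25a4 site at 5761 bp (67 and 252) stand apart at the lower left, and most other peaks lie beyond rank 1000 in both.

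Promoters were also examined without the optimal list. In both leading lists a summit lay within 1 kb of an own TSS for 13 members (27.7%), against 15.4% of all protein-coding genes. In the full lists of 300000 calls, which contain many weak ones, both replicates had such a call for 30 members (63.8%), against 42.1% of all protein-coding genes. For 10 members neither full list had a call there, namely Slc25a2, Slc25a18, Slc25a24, Slc25a31, Slc25a37, Slc25a41, Slc25a43, Slc25a47, Slc25a48 and Slc25a54. The share of all protein-coding genes without a call in either full list is not given. Of the 28 members without an assigned optimal peak, 9 (32.1%) had a promoter summit in the leading list of at least 1 replicate, against 12.6% of all protein-coding genes without an assigned peak.

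Beside related gene groups, the family lay between other mitochondrial genes and other solute carriers in its share of genes with peaks. At least 1 assigned peak was found for 40.4% of Slc25 members, against 39 of 78 mitochondrial ribosomal protein genes, 60.6% of 104 nuclear genes of the respiratory chain and 31.4% of 303 other solute carriers. A summit at the own promoter was found for 34.0% of Slc25 members, against 57.7%, 57.7% and 14.5% of those groups. Slc25 members had 1.13 peaks per gene, against 0.962, 0.99 and 0.634 in those groups and 0.711 over all protein-coding genes. Without Slc25a4 the value was 0.935 over the other 46 members, while no gene was left out of the comparison groups. The promoter-proximal share of Slc25 peaks was 41.5%, against 65.3%, 73.8% and 29.7%. The groups differ in territory, with medians of 36.3 kb for Slc25 members and 24.6, 22.2 and 62.4 kb for the others, and the part of territory in these differences was not tested.

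**Figure D4:**
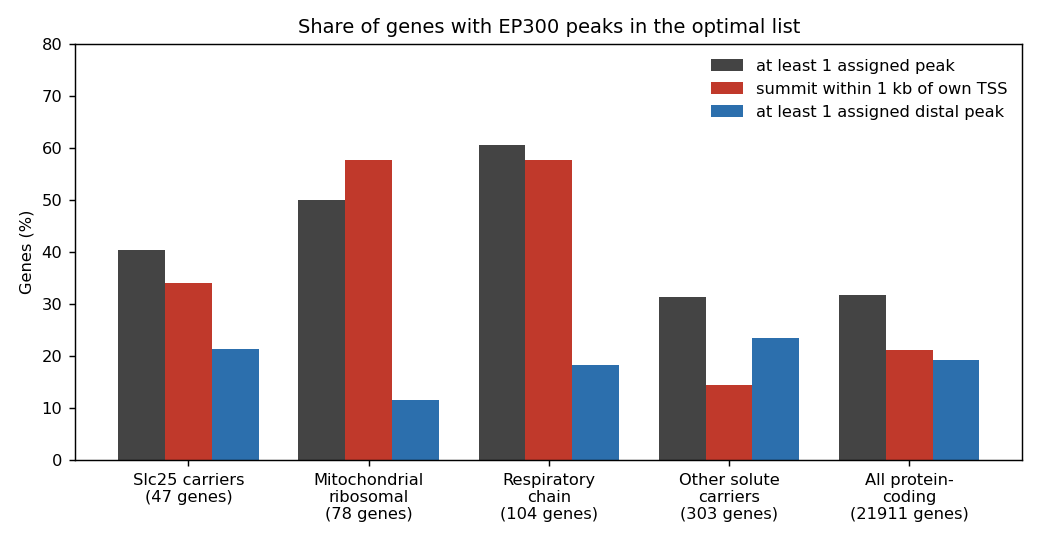
Percentage of genes with at least 1 assigned peak (dark bars), with a summit within 1 kb of an own TSS (red) and with at least 1 assigned distal peak (blue), for the Slc25 family and then 3 comparison groups and all protein-coding genes. Slc25 members (40.4%, 34.0% and 21.3%) lie below the ribosomal and respiratory chain genes in the first measures and above the other solute carriers (31.4% and 14.5%).

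A list of 34 other genes of mitochondrial transport was read the same way. Peaks were assigned to 22 of them (64.7%), 43 in all, against 31.8% of all protein-coding genes, and 20 had a summit at their own promoter. The outer membrane channel Vdac2 had the highest peak of the list, of 117.2 at rank 216, and Ucp3, an uncoupling protein of muscle and heart, had one of 79.1. Of the calcium uniporter genes 5 of 7 had peaks, among them Mcur1 with 5, and of the genes that import carriers 8 of 12, with Timm13 reaching 74.4 and Tomm40 reaching 62.0. The pyruvate carrier gene Mpc1 had a promoter peak of 47.6. The promoter peak of Slc25a4, at 222.7, was higher than any peak of these 34 genes.

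Short motifs were counted in the 200-base windows at member summits, beside all assigned peaks of the same class. Among 31 distal member windows, the TEAD motif GGAATG was found in 7 (22.6%, beside 17.7% of all distal windows), the GATA motif AGATAA in 5 (16.1%, beside 16.6%), CAGCTG in 4 (12.9%, beside 20.8%) and CACGTG in 2 (6.45%, beside 5.68%). Among 22 promoter-proximal member windows, the KLF/SP motif GGGCGGG was found in 5 (22.7%, beside 27.2%) and the ETS motif CCGGAAGT in 1 (4.55%, beside 6.78%), in Slc25a5. CACGTG was found in 2 of these 22 (9.09%, beside 7.92%), in Slc25a29 and Slc25a39. The NRF1 motif GCGCANGCG, the YY1 motif AAGATGGCG and the CRE motif TGACGTCA were found in none of the 53. No motif of the set holds another. With so few windows a difference of 1 or 2 moves a share by several percent.

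The motif TCAAGGTCA, bound by the oestrogen-related receptors that act on genes of energy metabolism, was present in 3 of 53 member windows (5.66%), beside 98 of all 15570 (0.629%). These windows belong to Slc25a30, with 2, and Slc25a28. They were singled out after the counts had been seen, and are shown on the plus strand with the motif in capitals.
Slc25a30 upstream peak of 41.7, chr14:75802838-75802867: aaagcacagcTCAAGGTCAtcgctcacttg
Slc25a28 promoter-proximal peak of 34.6, chr19:43675300-43675329: agccagacctTCAAGGTCAaaccgctgtcg
Slc25a30 intronic peak of 23.7, chr14:75773674-75773696: ttgccgggccTCAAGGTCAgata
The Slc25a28 match lay 6 bp from the summit, and those of Slc25a30 lay 64 and 91 bp from theirs.

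The letters at the annotated start of each member, from 250 bases before it, were compared in the same way. TATAAA beginning 20 to 40 bases upstream was found for 1 of 47 members, Slc25a4, and for 530 of all 21911 protein-coding genes (2.42%). The median number of CpG was 16 in members and 11 in all protein-coding genes, and it was 15 in the 16 members with a summit at their promoter and 16 in the 31 without, beside 21 in all protein-coding genes with such a summit and 8 in those without. CACGTG was found at 11 of 47 member starts (23.4%), beside 7.74% of all protein-coding genes. It was at 1 of the 16 members with an own-promoter summit (6.25%) and at 10 of the 31 without (32.3%), beside 11.3% of all protein-coding genes with such a summit and 6.8% of those without. The letters were read at 1 start per gene, while a summit near any TSS of the gene counted, so they need not be those at the EP300 summit. Slc25a29 and Slc25a39 had no CACGTG at the start read, yet held it in a promoter-proximal summit window. The KLF/SP motif was found in 10 of the 16 with a summit (62.5%) and in 12 of the 31 without (38.7%), beside 45.1% of all protein-coding genes with a summit at their promoter and 27.9% of those without.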

How the data were processed

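Peaks of EP300 ChIP-seq in newborn heart were analysed as the authors deposited them, as narrowPeak lists on mm10, per the file headers. The authors' signal value per peak, the deposited −log10 q and the deposited score (a scaled IDR) were used as they stand. Per the file headers, replicate 1 was called with 2 further input files and replicate 2 with 1, and the IDR lists derive from the replicate and pooled lists. Aligner, peak caller and IDR cut-off: not given in the sources used here. What the unequal number of input files does to the ranks was not tested.

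Summits were assigned to the nearest of 54355 protein-coding TSSs of GENCODE M21, and 17339 of 17372 optimal peaks on main chromosomes were used. Sequences came from the RefSeq GRCm38 FASTA. The assignment was tested on simulated data. Territory was cut at 100 kb on each side. Python 3.11.15, numpy 2.4.6, pandas 2.3.3, pysam 0.24.0 and matplotlib 3.10.9 were used. Described in full were the members at the 10 highest member peaks, the 5 with most peaks and 19 with known roles in energy supply, and other members were named with fewer values, except 1 that is not reported here. Members, lists and motifs were chosen with earlier results of these data known. With 1 group and 2 replicates no test was made.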

Additional observations from a re-analysis of the deposited data

How the results depend on the processing

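The number of members with a peak ranged from 15 to 23 over 10 alternatives, against 19 as reported, and that of members with a summit at their own promoter from 11 to 20, against 16. The lowest counts came with peaks above the median signal, where 22.1% of all protein-coding genes had a peak and 13.8% an own-promoter summit. The highest came from replicate 2 alone, where these shares of all protein-coding genes were 32.9% and 20.2%. The count of peaks was more dependent on settings. Of 53 peaks, 28 lay above the median signal, 29 had a −log10 q of at least 2, and 34 lay within an assignment limit of 10 kb. Of all 15570 assigned peaks, 7778, 8950 and 9147 did so. Of 22 promoter-proximal peaks, 12 lay above the median signal and 13 had a −log10 q of at least 2, beside 2908 and 3325 of all 5810 promoter-proximal peaks. Of 20 peaks in both replicates, 13 passed with a distance of 50 bp and 13 with 10000 leading peaks. Each was 24.5% of the 53, beside 29.2% and 27.1% of all assigned peaks. At 250 bp there were 29 (54.7%, against 53.6% of all assigned peaks), so that the family's share was then close to that of all peaks. From 1 replicate alone, 22 to 23 members had a peak, 51 to 57 peaks were assigned, 17 to 20 members had an own-promoter summit and 21 to 25 peaks were promoter-proximal. Replicate 1 alone shared 16 of the 19 members with the optimal list and replicate 2 alone also shared 16. Slc25a4 held the highest member peak in each setting for which members were compared, with 8 to 12 peaks, or 6 where neighbouring calls were joined or lower peaks left out. No paired analysis was possible because there is 1 group. The depth is unknown, and a member without a peak may lie below what these libraries could show.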
